A study of Mus musculus with 6 samples.

Results

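Genes for making, importing, exporting, and storing cholesterol and for making fatty acids were examined in OT-I CD8+ T cells, which come from mice with a transgenic T cell receptor for an ovalbumin peptide. The list held 41 genes of the 57126 in the count table, chosen by what their products do, with earlier results of these data known. All 41 were in the table, all passed the filter on low counts, and all had at least 10 counts in every sample. CD8+ T cells from OT-I lymph nodes and spleens were expanded on nano-aAPCs, nanoparticles that present antigen to T cells, and were harvested on day 6 of culture. The 3 TEff samples were expanded with IL-2, and the 3 TRM-like samples with the same cytokine plus IL-15 and TGF-β. IL-15 and TGF-β were added together, so the effect of either cytokine cannot be told apart from the other. The sequencing description names mouse IL-2, whereas the expansion methods name human IL-2. No source used here says whether the replicates came from separate mice or cultures, so the spread between them may be technical. Both groups were made in culture, and the TRM-like cells were not isolated from a site of resident memory T cells.

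Cells make cholesterol from acetyl-CoA through mevalonate and squalene, and fatty acids from acetyl-CoA through malonyl-CoA. Most of the enzymes are switched on together by SREBP transcription factors, which SCAP escorts to the Golgi for activation when sterols in the endoplasmic reticulum are low, and which INSIG proteins hold back when sterols are abundant. LXR receptors sense oxidized sterols, which build up when cholesterol is abundant, and switch on the exporters ABCA1 and ABCG1, the ubiquitin ligase MYLIP, which removes lipoprotein receptors, and also *Srebf1*. Activated T cells raise sterol and fatty acid synthesis to build the membranes of their daughter cells.

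Between 18319013 and 21960760 reads per TEff sample and between 21178756 and 23622621 per TRM-like sample were counted on genes. Levels are given as CPM, counts scaled to a common library size with edgeR's TMM method. The 6 markers of CD8+ T cells, the labelled cell type, were present in every sample and summed to 1927 to 2052 CPM in TEff and 2449 to 3419 in TRM-like samples. Markers of B cells (5 genes) summed to 5.94 to 6.78 and 7.29 to 10.9 CPM, those of macrophages and dendritic cells (8 genes) to 5.49 to 6.58 and 3.27 to 5.59 CPM, and those of NK cells (2 genes) to 9.83 to 21.97 and 0.0922 to 8.77 CPM. Markers of CD4 T cells (2 genes) summed to 35.1 to 40.3 CPM in TEff and 16.9 to 25.2 CPM in TRM-like samples. Of that pair, *Cd4* itself was at 0.0457 to 0.111 CPM in TEff and 0 to 0.0874 CPM in TRM-like samples. The sum thus came almost wholly from the other gene. Libraries stood apart within the TRM-like group. In replicates 1 and 2, 35130 and 35559 genes had a count, against 24229 to 24908 in the other 4 samples. The same held for 1065 and 1139 of 1973 olfactory and vomeronasal receptor genes, which T cells are not known to use, against 54 to 63. Replicate 3 often lay apart from them in the genes below, so results are given with and without it. In bulk RNA, fewer cells with a transcript and less of it per cell cannot be told apart.

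The sterol and fatty acid genes mostly had a higher mean level in TRM-like than in TEff cells, but few passed the test, and in many of them a single sample set the difference. A gene was called when edgeR's quasi-likelihood test gave an adjusted p (Benjamini-Hochberg) under 0.05 over the 26154 genes tested, with a log2 fold change of more than 0.58 in either direction. By this rule 2 of the 41 genes rose (4.88%), against 1.52% of all genes tested, and 0 fell, against 1.48%. The pair that rose were *Srebf1*, which encodes the SREBP-1 transcription factors, and *Soat1*, which encodes the enzyme that esterifies cholesterol for storage. At an unadjusted p under 0.05, 18 genes were higher (8.35% of all genes tested were) and 2 were lower (6.45%), and DESeq2 called 7 higher, against 2.57% of all genes tested, and 0 lower, against 2.27%. The log2 fold change was above 0 in 37 of the 41 genes, with a median of 0.44 against 0.02 over all genes tested. In 20 genes (48.8%) every TRM-like sample was above every TEff sample, against 10.6% of all genes tested, and in 2 (4.88%) every TRM-like sample was below, against 9.71%. The number above 0 was again 37 when counts were scaled by DESeq2's size factors or by library totals, and 30 without TRM-like replicate 3.

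**Figure D1:**
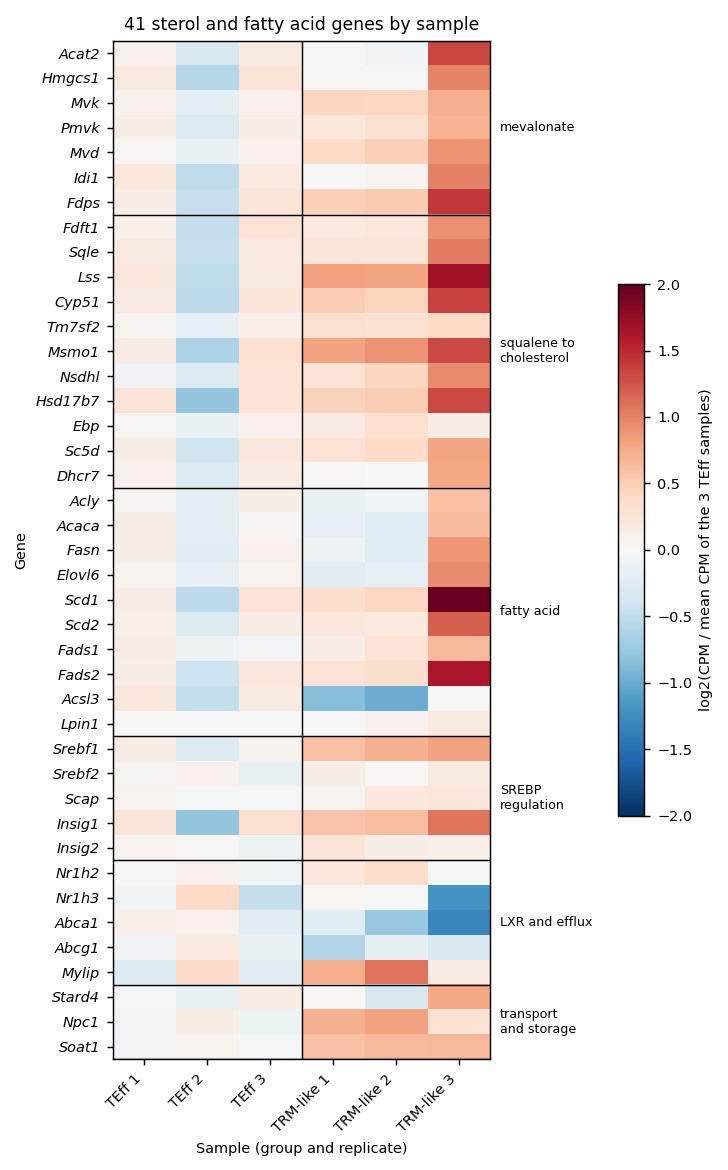
Level of each of the 41 genes in each of the 6 samples, as log2 of its CPM over the mean CPM of the 3 TEff samples (colour, red higher and blue lower, capped at 2 either way); rows are genes grouped by role and columns are samples. TRM-like replicate 3 is the reddest column through the synthesis genes, TEff replicate 2 the bluest, and the LXR and efflux genes do not follow them.

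The same samples lay at the ends of the range in gene after gene. TRM-like replicate 3 was the highest of the 6 samples in 17 of the 18 sterol synthesis genes (94.4%), the exception being *Ebp*, and TEff replicate 2 was the lowest in 18 of 18. Both held in 25 of the 41 genes (61%), against 6.97% of the 14822 genes that had at least 10 counts in each sample. The mean level over the 18 sterol synthesis genes, as log2(CPM + 0.5) minus the TEff mean, was 0.14, -0.36, and 0.22 in TEff replicates 1, 2, and 3 and 0.34, 0.37, and 1.00 in TRM-like replicates 1, 2, and 3. TRM-like replicates 1 and 2 thus lay above all 3 TEff samples by less than the distance between TEff replicates 2 and 3, and TRM-like replicate 3 lay well above them all. Over the 10 fatty acid genes the same measure was 0.12, -0.24, and 0.12 in TEff and -0.03, -0.02, and 0.88 in TRM-like cells. Here TRM-like replicates 1 and 2 lay inside the TEff range, and replicate 3 was the sample above it. A list of 16 DNA replication and division genes also had its lowest TEff value in replicate 2 and its highest value in TRM-like replicate 3, at 0.22, -0.43, and 0.21 in TEff and -0.83, -0.90, and 0.38 in TRM-like cells. That list was at its lowest in TRM-like replicates 1 and 2, unlike the sterol synthesis genes, and its part in these results was not tested.

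**Figure D2:**
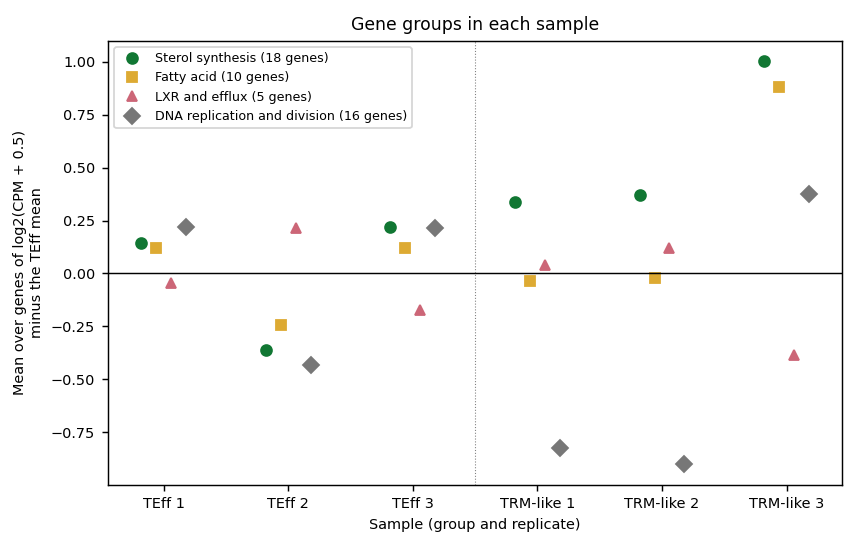
Mean over the genes of a list of log2(CPM + 0.5) minus the TEff mean (vertical axis) in each of the 6 samples (horizontal axis); each point is 1 list in 1 sample, with no error bar. Sterol synthesis genes lie at 1.00 and LXR and efflux genes at -0.38 in TRM-like replicate 3, and DNA replication and division genes fall to -0.90 in TRM-like replicate 2.

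Promoter sequence from RefSeq (assembly GRCm38.p6, whose coordinates differ from the GRCm39 positions of genes below) was matched for 32 of the 41 genes. Windows of 250 bases before to 50 after the start were searched on both strands for TCACNCCAC, the sterol regulatory element of the classic SREBP targets, for the E-box CACGTG, which SREBP-1 can also bind, for CCAAT, bound by NF-Y, and for GGGCGG, bound by Sp1; NF-Y and Sp1 are known to work beside SREBPs. CCAAT was present in 23 of the 32 (71.9%), against 41.1% of all 27025 genes with a window and 43.5% of the 9120 with at least 10 counts in each sample. GGGCGG was present in 25 (78.1%), against 38.2% and 68.2%, CACGTG in 6 (18.8%), against 8.09% and 11.8%, and TCACNCCAC in 1 (3.12%), against 1.44% and 1.48%. No matches of different motifs shared a base in these windows. All 9 genes from squalene to cholesterol that had a window held CCAAT, as did 5 of 6 mevalonate genes, 3 of 7 fatty acid genes, and 1 of 4 LXR and efflux genes. A match is a description of the letters, and absence of one says nothing of whether a factor binds. The 250 bases before the start are shown for 5 genes, 5′ to 3′ on the strand of the gene, with matches of TCACNCCAC, CACGTG, and CCAAT in capitals (ATTGG is CCAAT on the other strand). *Hmgcs1* holds the single TCACNCCAC match of the list, *Lss* and *Msmo1* had the highest fold changes of sterol enzymes, *Insig1* is the feedback gene of the pathway, and *Soat1* was called. *Srebf1*, also called, has 3 windows and is not shown.
*Hmgcs1*, chr13:119690101-119690350, plus strand: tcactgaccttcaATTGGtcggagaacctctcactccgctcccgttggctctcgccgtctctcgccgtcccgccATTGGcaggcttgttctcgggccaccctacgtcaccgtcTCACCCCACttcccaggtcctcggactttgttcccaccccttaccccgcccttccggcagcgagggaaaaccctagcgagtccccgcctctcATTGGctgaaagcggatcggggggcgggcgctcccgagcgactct
*Lss*, chr10:76531355-76531604, plus strand: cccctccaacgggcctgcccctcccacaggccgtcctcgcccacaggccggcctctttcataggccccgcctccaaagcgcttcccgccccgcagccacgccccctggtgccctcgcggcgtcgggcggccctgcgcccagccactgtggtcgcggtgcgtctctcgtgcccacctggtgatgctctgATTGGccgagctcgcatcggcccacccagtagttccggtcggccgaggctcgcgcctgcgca
*Msmo1*, chr8:64733579-64733828, minus strand: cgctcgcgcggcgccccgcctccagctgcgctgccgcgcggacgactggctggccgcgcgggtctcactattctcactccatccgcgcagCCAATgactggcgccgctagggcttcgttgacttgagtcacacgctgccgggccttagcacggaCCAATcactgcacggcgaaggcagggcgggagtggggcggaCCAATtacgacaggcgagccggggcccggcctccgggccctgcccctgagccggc
*Insig1*, chr5:28071162-28071411, plus strand: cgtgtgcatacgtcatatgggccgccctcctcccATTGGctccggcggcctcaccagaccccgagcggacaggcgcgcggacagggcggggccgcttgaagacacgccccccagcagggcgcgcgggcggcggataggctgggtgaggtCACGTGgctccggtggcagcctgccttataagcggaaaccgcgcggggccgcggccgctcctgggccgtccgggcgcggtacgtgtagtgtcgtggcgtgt
*Soat1*, chr1:156474329-156474578, minus strand: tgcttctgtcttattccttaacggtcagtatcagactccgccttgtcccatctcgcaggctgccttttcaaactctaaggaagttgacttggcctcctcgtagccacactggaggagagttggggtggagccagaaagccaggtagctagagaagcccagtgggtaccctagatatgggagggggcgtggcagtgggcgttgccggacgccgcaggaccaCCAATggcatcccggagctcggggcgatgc

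All 7 mevalonate genes, which carry acetyl-CoA to farnesyl diphosphate, had a log2 fold change above 0, with a median of 0.53. In 4, every TRM-like sample was above every TEff sample, against 10.6% of all genes tested. edgeR called 0 of the 7, against 1.52% of all genes tested called higher and 1.48% lower. At an unadjusted p under 0.05, 4 were higher, against 8.35% of all genes tested, and DESeq2 called 2 higher, against 2.57%. *Fdps*, which makes farnesyl diphosphate, the branch point between sterols and prenylated proteins, had 54.4, 36.2, and 58.7 CPM in TEff replicates 1, 2, and 3 and 68.9, 71.8, and 134 CPM in TRM-like replicates 1, 2, and 3. TRM-like replicates 1 and 2 were a little above the highest TEff sample and replicate 3 was 2.69 times the TEff mean (log2 fold change 0.88 ± 0.28, adjusted p = 0.175, where ± is the standard error of a fold change throughout). *Mvd*, the decarboxylase that makes isopentenyl diphosphate, had 31.2, 27.5, and 32.2 CPM in TEff and 40.2, 42.1, and 56.4 CPM in TRM-like samples. Its groups did not overlap, and its 3 TEff values were close together (log2 fold change 0.61 ± 0.16, adjusted p = 0.0933). *Mvk*, mevalonate kinase, had 21.4, 17.8, and 21.6 CPM in TEff and 27.3, 26.9, and 33.3 CPM in TRM-like samples, also without overlap (log2 fold change 0.53 ± 0.15, adjusted p = 0.116). *Hmgcs1*, *Acat2*, and *Idi1* behaved differently in the separate TRM-like samples. *Hmgcs1*, the synthase that makes HMG-CoA, the precursor of mevalonate, had 209.9, 126, and 223 CPM in TEff and 188, 189, and 369 CPM in TRM-like samples, so TRM-like replicates 1 and 2 lay inside the TEff range and replicate 3 was 1.98 times the TEff mean. *Acat2*, the thiolase that joins acetyl-CoA units, and *Idi1*, the isopentenyl diphosphate isomerase, showed the same order, at 41.7, 40.9, and 108 CPM for *Acat2* and 61.7, 63.7, and 122 CPM for *Idi1* in the TRM-like samples against TEff ranges of 34.2 to 48.6 and 43.03 to 70.4 CPM. *Acat2* shares 1700 bases with *Tcp1* on the opposite strand and has a close copy, *Acat3*, so its reads may be split. *Pmvk*, phosphomevalonate kinase, had no overlap, at 25.3 to 33.6 CPM in TEff and 35.6 to 49.8 CPM in TRM-like samples (log2 fold change 0.42 ± 0.18, adjusted p = 0.311).

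All 11 genes from squalene to cholesterol had a log2 fold change above 0, with a median of 0.57. In 8, every TRM-like sample was above every TEff sample, against 10.6% of all genes tested. edgeR again called 0, against 1.52% of all genes tested called higher and 1.48% lower. At an unadjusted p under 0.05, 6 were higher, against 8.35% of all genes tested, and DESeq2 called 2 higher, against 2.57%. *Lss* (ENSMUSG00000033105, GRCm39 chromosome 10, 76367298 to 76392976), lanosterol synthase, closes squalene epoxide into the first sterol and had 66.03, 40.1, and 64.6 CPM in TEff and 100.2, 98.6, and 182 CPM in TRM-like samples. All 3 TRM-like values were above the TEff values, and replicate 3 was well above the other TRM-like samples at 3.20 times the TEff mean. The means were 56.9 ± 14.6 and 127 ± 47.9 CPM (SD, n = 3 each; log2 fold change 1.16 ± 0.28, adjusted p = 0.0689). A long noncoding gene, *Gm15343*, overlaps *Lss* by 11276 bases on the other strand, and the strand setting of the counting is not given in the sources used here. *Msmo1* (ENSMUSG00000031604, chromosome 8, 65170603 to 65186830), the oxidase that removes methyl groups from the sterol ring, had 65.5, 38.3, and 73.9 CPM in TEff and 104, 110.3, and 148 CPM in TRM-like samples. Here all 3 TRM-like samples stood clear of TEff, at means of 59.2 ± 18.6 and 121 ± 24.1 CPM (SD, n = 3 each; log2 fold change 1.03 ± 0.25, adjusted p = 0.0671). *Cyp51*, the demethylase that acts on lanosterol, had 162, 100.1, and 169.98 CPM in TEff and 205, 196, and 371 CPM in TRM-like samples. Its groups did not overlap, but TRM-like replicates 1 and 2 were nearer to the highest TEff sample than to replicate 3 (log2 fold change 0.84 ± 0.29, adjusted p = 0.204).

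Of the other genes in this stretch, *Hsd17b7*, a sterol ketone reductase, had 12.05 to 25.1 CPM in TEff and 28.6 to 51.8 CPM in TRM-like samples (log2 fold change 0.82 ± 0.32, adjusted p = 0.268), and *Sqle*, the epoxidase that is a rate-limiting step, had 70.6 to 112 and 116 to 201 CPM (log2 fold change 0.57 ± 0.26, adjusted p = 0.349). *Fdft1*, squalene synthase, overlapped between the groups, with 48.6, 32.8, and 55.1 CPM in TEff and 52.2, 53.1, and 85.4 CPM in TRM-like samples. *Dhcr7*, the last reductase on the way to cholesterol, also overlapped, at 27.9, 21.5, and 29.2 CPM in TEff and 26.5, 26.04, and 44.7 CPM in TRM-like samples, and its TRM-like replicates 1 and 2 lay inside the TEff range. *Nsdhl*, the decarboxylating sterol dehydrogenase, overlapped too, at 15.5 to 23.3 and 22.98 to 36.4 CPM. *Ebp*, a sterol isomerase, was the one sterol gene in which TRM-like replicate 3 was not the highest: it had 53.5, 60.2, and 52.7 CPM in TRM-like samples against 43.5 to 50.3 in TEff (log2 fold change 0.22 ± 0.13, adjusted p = 0.487). *Sc5d*, the desaturase that follows it, had 51.3 to 78.7 and 83.04 to 118 CPM (log2 fold change 0.51 ± 0.20, adjusted p = 0.274), and *Tm7sf2*, a sterol reductase at a low level, had 6.18 to 7.40 and 8.52 to 9.08 CPM (log2 fold change 0.34 ± 0.16, adjusted p = 0.367).

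The 10 fatty acid genes had a lower median difference than the sterol synthesis genes (0.28 against 0.55), and their level set TRM-like replicate 3 apart. Their log2 fold change was above 0 in 9. In 3, *Scd1*, *Scd2*, and *Fads2*, every TRM-like sample was above every TEff sample, against 10.6% of all genes tested. edgeR called 0 (1.52% of all genes tested were called higher and 1.48% lower), as did DESeq2 (2.57% and 2.27%). At an unadjusted p under 0.05, 3 were higher, against 8.35% of all genes tested. *Fasn*, fatty acid synthase, had 329, 257, and 319 CPM in TEff and 280.2, 256, and 553 CPM in TRM-like samples, so TRM-like replicate 1 was inside the TEff range and replicate 2 just below it, while replicate 3 was 1.83 times their mean (log2 fold change 0.27 ± 0.28, adjusted p = 0.726). *Acly*, which makes cytosolic acetyl-CoA from citrate, *Acaca*, which makes malonyl-CoA, and *Elovl6*, which elongates palmitate, were likewise inside or below the TEff range in TRM-like replicates 1 and 2 and above it in replicate 3. Their TRM-like values were 261, 274, and 443 CPM for *Acly*, 52.3, 48.8, and 90.7 CPM for *Acaca*, and 42.9, 44.6, and 95.9 CPM for *Elovl6*, against TEff ranges of 253 to 315, 51.6 to 63.4, and 44.7 to 52.6 CPM. For these genes the sign of the group difference turned on replicate 3, since without it the log2 fold change was -0.18 for *Fasn*, -0.13 for *Acly*, -0.22 for *Acaca*, and -0.20 for *Elovl6*.

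The desaturases, which put double bonds into fatty acids, varied widely among the TRM-like samples. *Scd1* (ENSMUSG00000037071, chromosome 19, 44382894 to 44399154) had 65.2, 41.6, and 71.6 CPM in TEff and 75.5, 78.8, and 236 CPM in TRM-like samples. TRM-like replicate 3 stood at 3.97 times the TEff mean, whereas replicates 1 and 2 were just above the highest TEff sample, giving means of 59.5 ± 15.8 and 130.02 ± 91.6 CPM (SD, n = 3 each; log2 fold change 1.13 ± 0.43, adjusted p = 0.257). *Scd2*, a close copy with which *Scd1* could share reads, had 514, 392, and 534 CPM in TEff and 559, 551, and 1099 CPM in TRM-like samples (log2 fold change 0.62 ± 0.28, adjusted p = 0.343). *Fads2*, a desaturase of polyunsaturated fatty acids, had 49.1, 33.8, and 52.6 CPM in TEff and 54.99, 57.8, and 138 CPM in TRM-like samples, again with replicate 3 far out (log2 fold change 0.89 ± 0.35, adjusted p = 0.274). *Fads1*, its neighbour in that pathway, had 41.7, 35.1, and 36.4 CPM in TEff and 41.3, 46.1, and 59.02 CPM in TRM-like samples, with a small overlap (log2 fold change 0.37 ± 0.16, adjusted p = 0.329). *Acsl3*, an acyl-CoA synthetase of lipid droplets, was the gene of this group with a log2 fold change below 0. It had 18.4, 11.3, and 18.1 CPM in TEff and 8.81, 7.99, and 16 CPM in TRM-like samples, so TRM-like replicates 1 and 2 were below every TEff sample and replicate 3 was among them (log2 fold change -0.54 ± 0.29, adjusted p = 0.457). *Acsl3* shares 13693 bases with *Utp14b* on the same strand. *Lpin1*, a phosphatidate phosphatase, was nearly level, at 43.5 to 44.1 CPM in TEff and 43.7 to 49.8 CPM in TRM-like samples (log2 fold change 0.09 ± 0.12, adjusted p = 0.778).

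**Figure D3:**
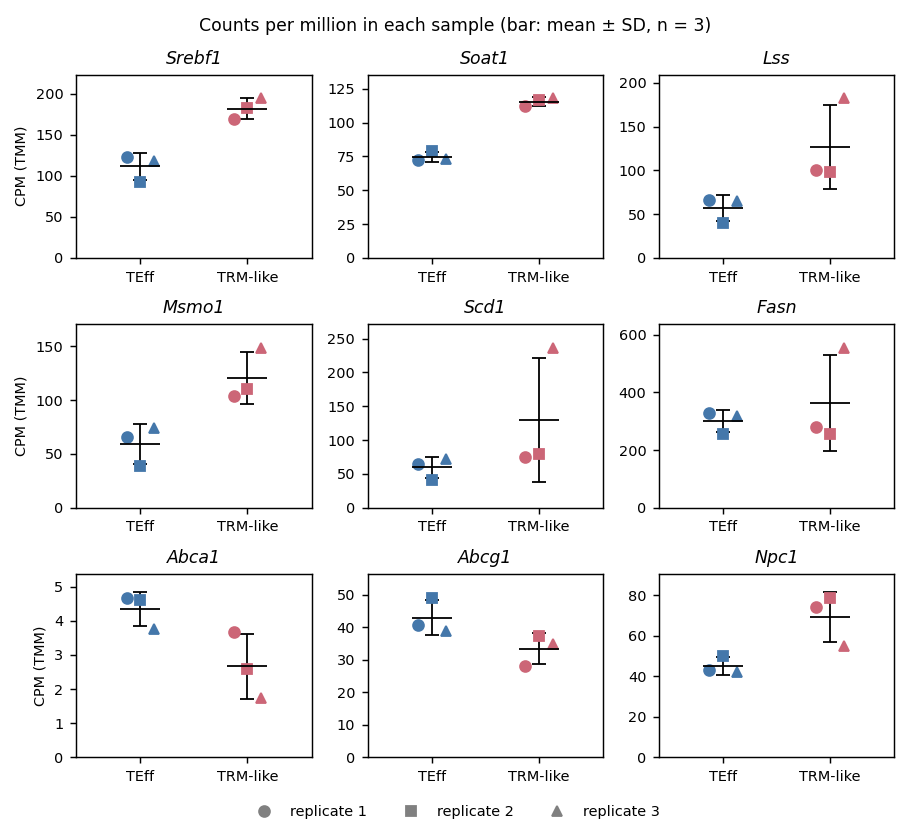
CPM (vertical axes, from 0, scaled by TMM) of 9 genes in the 3 TEff and 3 TRM-like samples (horizontal axes); points are samples, with their replicate number as the shape, and bars are the mean ± SD (n = 3). The groups are apart for *Srebf1* and *Soat1*, with close replicates for *Soat1* and a lower TEff replicate 2 for *Srebf1*. *Scd1* and *Fasn* have 1 TRM-like sample, replicate 3, far above the other 5.

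Of the 5 genes that regulate SREBPs, all had a log2 fold change above 0 (median 0.17), and *Srebf1* was called higher (1.52% of all genes tested were). In 3 of the 5, every TRM-like sample was above every TEff sample, against 10.6% of all genes tested. *Srebf1* (ENSMUSG00000020538, chromosome 11, 60089913 to 60113407) had 123, 92.7, and 119 CPM in TEff and 169, 182, and 194 CPM in TRM-like samples. All 3 TRM-like samples were above all TEff samples, including replicates 1 and 2, and the means were 112 ± 16.4 and 182 ± 12.7 CPM (SD, n = 3 each). Its log2 fold change was 0.70 ± 0.15 (SE; edgeR adjusted p = 0.0411). With any one sample other than TRM-like replicate 3 left out, the log2 fold change was 0.59 to 0.79 and the adjusted p 0.0964 to 0.153, so the gene was not called. In those 5 fits of 5 samples each, 119 to 221 of all genes were called higher, against 398 with all 6 samples. *Srebf1* overlaps *Rai1* by 114 bases on the opposite strand. *Srebf2*, which encodes the factor that mainly drives the sterol genes, had 144, 148, and 125 CPM in TEff and 149.8, 142, and 157 CPM in TRM-like samples, with the groups overlapping (log2 fold change 0.11 ± 0.13, adjusted p = 0.764). *Scap*, the SREBP escort, had 64.6 to 70.05 and 69.4 to 78.1 CPM (log2 fold change 0.17 ± 0.12, adjusted p = 0.593). *Insig1*, itself a sterol-responsive target that closes the feedback loop, had 142, 69.8, and 149.6 CPM in TEff and 179, 185, and 254 CPM in TRM-like samples. The TRM-like samples were all higher, and the low value of TEff replicate 2 set most of the spread in TEff (log2 fold change 0.78 ± 0.28, adjusted p = 0.227). A noncoding gene, *Gm26608*, covers all 7354 bases of *Insig1* on the opposite strand. *Insig2*, the related retention protein, had 9.95 to 11.2 CPM in TEff and 11.4 to 12.7 CPM in TRM-like samples (log2 fold change 0.16 ± 0.14, adjusted p = 0.675).

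The 5 LXR and efflux genes went in both directions, with a median log2 fold change of -0.29. None was called by edgeR (1.52% of all genes tested were called higher and 1.48% lower) or DESeq2 (2.57% and 2.27%). At an unadjusted p under 0.05, 1 was higher (8.35% of all genes tested were) and 2 were lower (6.45%). *Abca1* (ENSMUSG00000015243, chromosome 4, 53030787 to 53159900), the exporter that loads cholesterol onto apolipoprotein, had 4.66, 4.61, and 3.76 CPM in TEff and 3.66, 2.58, and 1.75 CPM in TRM-like samples. The groups were apart only by the small gap between TEff replicate 3 and TRM-like replicate 1, with means of 4.34 ± 0.507 and 2.66 ± 0.959 CPM (SD, n = 3 each; log2 fold change -0.70 ± 0.28, adjusted p = 0.289). *Abcg1* (ENSMUSG00000024030, chromosome 17, 31276649 to 31336969), the exporter to lipoprotein particles, had 40.8, 49.1, and 38.9 CPM in TEff and 28.2, 37.3, and 34.9 CPM in TRM-like samples, likewise narrowly apart (log2 fold change -0.36 ± 0.15, adjusted p = 0.323). Macrophages express both exporters, and the 8 macrophage and dendritic cell markers summed to 5.49 to 6.58 CPM in TEff and 3.27 to 5.59 CPM in TRM-like samples. Between 3 and 4 of those markers were at 0 counts in each TEff sample, 1 in TRM-like replicates 1 and 2, and 5 in replicate 3, and their part in the exporter values was not tested. *Mylip*, the ligase that LXR induces, went the other way from the exporters, with 7.09, 11.1, and 7.40 CPM in TEff and 14.2, 18.1, and 9.59 CPM in TRM-like samples. TRM-like replicates 1 and 2 were above all TEff samples, and replicate 3 was inside the TEff range (log2 fold change 0.71 ± 0.26, adjusted p = 0.245). Of the receptors, *Nr1h2* (LXRβ) had 50.8, 54.4, and 48.1 CPM in TEff and 59.9, 65.7, and 50.1 CPM in TRM-like samples (log2 fold change 0.20 ± 0.14, adjusted p = 0.59). *Nr1h3* (LXRα) was low in every sample, at 1.10, 1.52, and 0.829 CPM in TEff and 1.18, 1.14, and 0.507 CPM in TRM-like samples, with the groups overlapping (log2 fold change -0.29 ± 0.40, adjusted p = 0.805). *Abca1* and *Nr1h3* were the list's genes nearest the level of the silent receptor genes, at no less than 8.80 and 18.5 times that level per length in any sample.

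Of the genes that move and store sterols inside the cell, *Soat1* and *Npc1* were higher in every TRM-like sample, and *Stard4* was not. *Soat1* (ENSMUSG00000026600, chromosome 1, 156252095 to 156303864) had 72.02, 78.9, and 73.3 CPM in TEff and 112, 117, and 118 CPM in TRM-like samples. Its replicates were close in both groups, at 74.7 ± 3.64 and 116 ± 3.03 CPM (SD, n = 3 each), with TRM-like replicate 3 beside the other TRM-like samples. Its log2 fold change was 0.63 ± 0.12 (SE; edgeR adjusted p = 0.0246), and in the same 5 fits its log2 fold change was 0.61 to 0.67 and its adjusted p 0.0711 to 0.178. *Npc1*, which lets cholesterol out of lysosomes, had 43.3, 49.97, and 41.9 CPM in TEff and 74.1, 78.7, and 55.1 CPM in TRM-like samples. Replicate 3 was here the lowest TRM-like sample and still above every TEff sample (log2 fold change 0.62 ± 0.16, adjusted p = 0.0909). *Npc1* shares 11203 bases with *Rmc1* on the opposite strand. *Stard4*, a carrier of sterols between membranes, had 70.2, 64.6, and 79.4 CPM in TEff and 73.3, 56.97, and 123 CPM in TRM-like samples, with replicate 2 below and replicate 3 above all TEff samples (log2 fold change 0.24 ± 0.25, adjusted p = 0.732).

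Synthesis and efflux genes were then set against each other in each sample. The mean of the 28 synthesis genes, minus that of the 5 LXR and efflux genes, each as log2(CPM + 0.5) from its TEff mean, was 0.18, -0.53, and 0.35 in TEff replicates 1, 2, and 3. It was 0.16, 0.11, and 1.34 in TRM-like replicates 1, 2, and 3. TRM-like replicate 3 was thus the highest sample and TEff replicate 2 the lowest, and TRM-like replicates 1 and 2 lay inside the TEff range. In TRM-like replicate 3, *Abca1*, *Nr1h3*, and *Abcg1* were below every TEff sample, while *Nr1h2* and *Mylip* were inside the TEff range. *Abca1* and *Nr1h3* lay furthest below on the log2 scale, and they had the fewest counts of the list. With the exporters *Abca1* and *Abcg1* alone, the mean was 0.02, 0.14, and -0.16 in TEff and -0.40, -0.42, and -0.69 in TRM-like samples, so all 3 TRM-like samples were below all 3 TEff samples. The synthesis mean minus that of the exporters alone, a measure chosen after the values were seen, was 0.12, -0.46, and 0.34 in TEff and 0.60, 0.65, and 1.65 in TRM-like samples. By that measure all 3 TRM-like samples lay above the TEff samples, so where replicates 1 and 2 stood turned on whether *Mylip* and the LXR receptors were counted with the exporters. No test was run on these means, since they average chosen genes.

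TRM-like replicate 3 was then left out. The edgeR fit of the remaining 5 samples called 6.38% of all genes tested higher and 7.67% lower. Its TRM-like side was replicates 1 and 2 alone, in which 35130 and 35559 genes had a count, against 24235 to 24908 in the TEff samples. Group and this feature of the libraries cannot be told apart in the fit. Of the 41 genes the fit called 6 higher (14.6%), *Lss*, *Msmo1*, *Mylip*, *Npc1*, *Soat1*, and *Srebf1*, and 1 lower (2.44%), *Acsl3*. The log2 fold change moved little for *Srebf1*, from 0.70 to 0.64 ± 0.13 (adjusted p = 0.00302), and for *Soat1*, from 0.63 to 0.60 ± 0.10 (adjusted p = 0.00105). It was smaller for *Msmo1*, going from 1.03 to 0.84 ± 0.20 (adjusted p = 0.00897), and for *Lss*, going from 1.16 to 0.79 ± 0.17 (adjusted p = 0.00524), and both were called at the smaller size. It grew in size to 0.75 ± 0.11 for *Npc1* (adjusted p = 0.000394), 0.91 ± 0.19 for *Mylip* (adjusted p = 0.00362), and -0.93 ± 0.20 for *Acsl3* (adjusted p = 0.00468). It went from 0.42 to 0.01 ± 0.19 for *Hmgcs1*, from 0.44 to 0.03 ± 0.17 for *Idi1*, from 0.57 to -0.06 ± 0.14 for *Acat2*, and from 1.13 to 0.37 ± 0.18 for *Scd1*. The median was 0.32 over the 18 sterol synthesis genes, -0.05 over the 10 fatty acid genes, and 0.25 over all 41. In this fit the 16 DNA replication and division genes were all called lower in TRM-like cells, whereas with all 6 samples edgeR and DESeq2 called none and none had an unadjusted p under 0.05. Leaving out TEff replicate 2 instead also lowered the log2 fold change of several sterol genes. It went to 0.79 for *Msmo1*, 0.96 for *Lss*, 0.63 for *Cyp51*, 0.70 for *Fdps*, and 0.50 for *Insig1*. Without that sample it was higher for *Soat1* (0.67), *Npc1* (0.70), and *Mylip* (0.94) than with all 6.

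**Figure D4:**
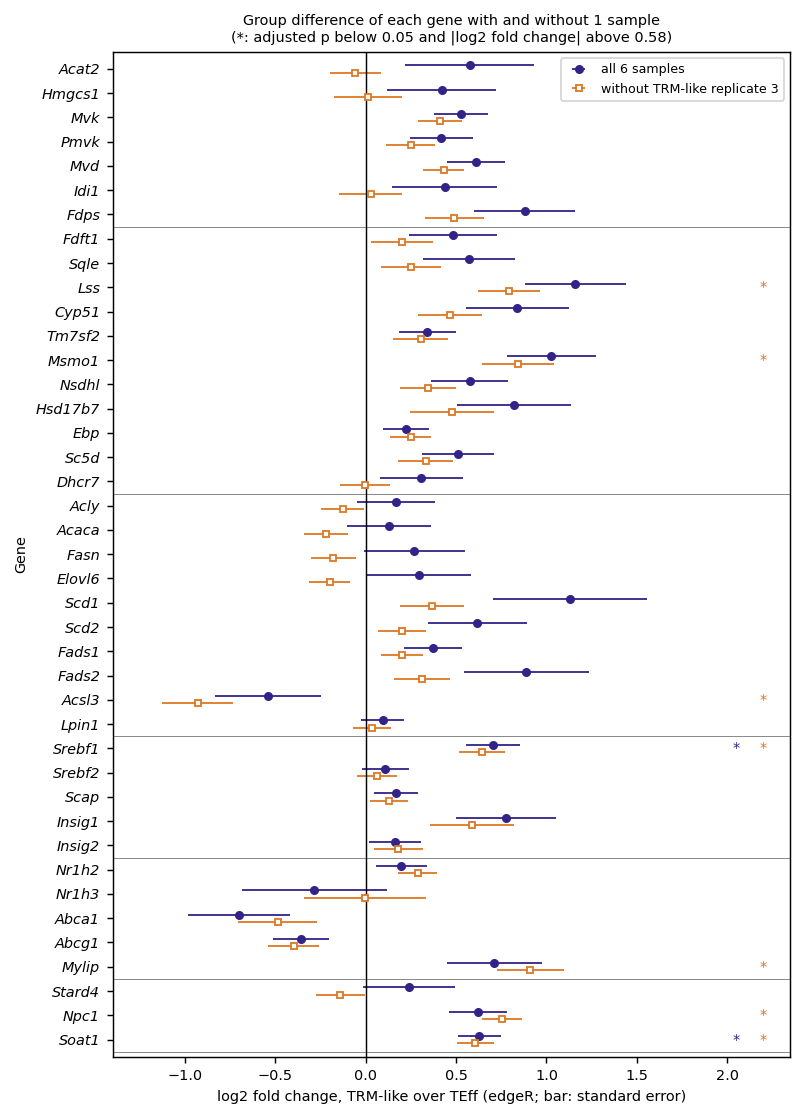
Log2 fold change of TRM-like over TEff (horizontal axis) for each of the 41 genes (vertical axis), with all 6 samples (filled) and without TRM-like replicate 3 (open); bars are the standard error and stars mark calls in each fit. *Srebf1* and *Soat1* are starred in both, *Fasn* moves from 0.27 to -0.18, and *Acsl3* from -0.54 to -0.93.

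Levels in RPKM, CPM divided by gene length in kilobases, placed the desaturase *Scd2* highest in TEff cells at a mean of 87.99, followed by *Acly* at 63.1, *Hmgcs1* at 53.4, and *Insig1* at 44.7. The lowest were *Nr1h3* at 0.534 and *Abca1* at 0.423. The values of *Hmgcs1* were 60.3, 36.1, and 63.99 RPKM and those of *Insig1* 52.7, 25.9, and 55.5 RPKM in TEff replicates 1, 2, and 3, so these neighbours in the order overlapped, whereas the 3 values of *Scd2* (94.3, 71.8, and 97.8 RPKM) were above those of *Acly* (65.8, 54.96, and 68.4 RPKM) sample by sample.

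Among 59 further genes of sterol and lipid metabolism, 57 were tested, with a median log2 fold change of 0.05. At an unadjusted p under 0.05, 7 were higher (8.35% of all genes tested were) and 3 were lower (6.45%). DESeq2 called 3 higher, against 2.57% of all genes tested, and 0 lower, against 2.27%. edgeR called 1 of the 57 higher, against 1.52% of all genes tested, and 0 lower, against 1.48%. The gene called was *Slc25a1*, the mitochondrial carrier that exports the citrate from which acetyl-CoA is made. It had 26.9, 24.8, and 29.6 CPM in TEff and 38.6, 42.6, and 45.5 CPM in TRM-like samples, all higher in TRM-like (log2 fold change 0.64 ± 0.13, adjusted p = 0.0363). *Por*, which passes electrons to CYP51 and squalene epoxidase, had 28.2, 26.3, and 29.1 CPM in TEff and 38.8, 39.9, and 48.6 CPM in TRM-like samples, without overlap but missing the threshold (log2 fold change 0.61 ± 0.14, adjusted p = 0.0509). *Lpin2*, a second phosphatidate phosphatase, had 35.9 to 39.6 CPM in TEff and 48.6 to 58.9 CPM in TRM-like samples (log2 fold change 0.53 ± 0.13, adjusted p = 0.0714). Of 8 genes that process or degrade SREBP and its partners, *Mbtps2*, the site-2 protease that frees active SREBP, had the smallest p, at 15.7 to 16.96 CPM in TEff and 11.01 to 13.7 CPM in TRM-like samples (log2 fold change -0.44 ± 0.14, adjusted p = 0.188), and *Rnf139*, a ubiquitin ligase of the endoplasmic reticulum, had 39.9 to 42.7 and 44.5 to 53.7 CPM (log2 fold change 0.27 ± 0.13, adjusted p = 0.379). Of 11 further efflux and LXR genes, *Lpcat3*, an LXR target that remodels phospholipids, had 29.3 to 35.4 and 42.5 to 45.3 CPM (log2 fold change 0.39 ± 0.13, adjusted p = 0.19), and *Rxrb*, a partner of LXR, 53.3 to 53.7 and 42.9 to 48.4 CPM (log2 fold change -0.25 ± 0.12, adjusted p = 0.379).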

How the data were processed

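RNA was sequenced from 6 samples, and groups follow the sample labels. The authors trimmed reads with Cutadapt 4.8, used Rsubread to map them to GRCm39 and to count them on GENCODE genes, and deposited these raw counts, not normalized, beside gene lengths. The strand setting and the treatment of reads mapping to several places are not given in the sources used here, and either could change the counts of overlapping or duplicated genes. The study's methods mention a batch that the labels do not name, so none was modelled. A later GENCODE release on GRCm39, which held 56620 of the 57126 genes, gave symbols and coordinates. Groups were compared by the quasi-likelihood test of edgeR 4.0.16 in R 4.3.3 (TMM normalization, no replicate block) on genes that had 1 or more counts in 3 or more samples, and p values were adjusted by Benjamini-Hochberg. CPM were scaled by TMM, RPKM also by the deposited length, and ± after a log2 fold change is its standard error (its size over the square root of F). Group means of log2 CPM used an offset of 0.5. Alternatives were DESeq2 1.42.0, its size factors, library totals, other filters, the adjusted p alone, a replicate block, and each sample left out.

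The members and lists were chosen with earlier results of these data known. Genes given with their own test are those called and the 3 with the smallest p in each group of the list, with the 2 of smallest p in each further list; the levels of the remaining members follow by role, most with the fitted difference. Some genes that the rule would name are not reported here. Comparison with silent genes used 1973 olfactory and vomeronasal receptor genes.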

Additional observations from a re-analysis of the deposited data

How the results depend on the processing

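The count of the 41 genes called higher was 2 with DESeq2's size factors, library totals, the filter of at least 10 counts in every sample, or the adjusted p alone. It was 7 with DESeq2 and 14 without a filter, and 0 to 6 with each sample left out in turn, being 0 without any TEff sample or TRM-like replicate 1 or 2 and 6 without TRM-like replicate 3. Calls over all genes moved with these counts, at 671 higher with DESeq2, 1002 of 42234 without a filter, 119 to 221 with a sample other than TRM-like replicate 3 left out, and 1625 without that replicate, against 398. They were 426 with DESeq2's size factors, 408 with library totals, and 299 of 14822 with the filter of 10 counts. The count called lower was 0 throughout, except for 1 without TRM-like replicate 3 (0 to 1 over the samples left out). Between 22 and 26 genes had no overlap between the groups under the scalings and samples tried. The share over all genes tested (10.6% above and 9.71% below) was taken only with all 6 samples and TMM, where the count was 22. With a sample left out, fewer values have to lie apart, so the count can rise for that reason alone. Of the 59 further genes, 3 were called higher with DESeq2, 2 with its size factors, 4 without a filter, 2 with the filter of 10 counts, and 0 to 3 with a sample left out, and 0 to 5 were called lower, 5 without TRM-like replicate 3. Over all genes tested, 7.67% were called lower without that replicate (1954 of 25478). That number was 144 to 222 with another sample left out and 388 with all 6. *Stard4* changed sign without TRM-like replicate 3, at -0.14 on the log2 scale (-0.14 to 0.45 over the samples left out). The causes of these differences were not tested.

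The replicate number shared by a TEff and a TRM-like sample was also used as a block. Deviations from the group means correlated at -0.332, 0.345, and 0.416 for numbers 1, 2, and 3 over 14822 genes. With 3 samples per group, these values cannot tell whether same-numbered samples share more than a number. With the replicate block, 13 of the 41 genes were called higher, or 12 under the filter of 10 counts, and 0 lower. Of the 59 further genes, 4 (or 3 under that filter) were called higher and 3 (or 0) lower. Over all genes tested, the block called 955 higher and 1079 lower, against 398 and 388 without it. Under the filter of 10 counts, the block called 443 of 14822 higher and 460 lower. In the block fit without that filter, and in the fit with no filter, edgeR gave no weight to each gene's own spread (infinite prior degrees of freedom, against 4.97 in the main fit). The standard error of *Scd1*, for example, was 0.18 with the block against 0.43 in the main fit. Depth limited *Nr1h3* and *Abca1* most, with 11 to 30 and 38 to 102 counts per sample.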
